A study of Mus musculus with 10 samples.

Results

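Tight junction claudins and their scaffold partners were described in mouse first lower molars cultured with insulin-like growth factor 1 (IGF1). The genes were the claudins Cldn1, Cldn4, Cldn6, Cldn7 and Cldn12, the tetraspan protein occludin (Ocln), and the zonula occludens scaffolds Tjp1 (ZO-1) and Tjp3 (ZO-3). They were taken by gene symbol, 8 of the 18381 genes in the table, and all 8 passed the filter on low counts, which kept 14504 genes. The teeth came from wild type C57BL/6JOlaHsd embryos at embryonic day 14 and were grown as hanging drops for 6 h. From each of 5 embryos (numbered 1, 2, 3, 4 and 6), a tooth received mouse recombinant IGF1 at 750 ng/ml in 1x PBS with 0.1% BSA, and the other tooth received the same volume of PBS with BSA alone. Left and right sides were balanced, and each tooth gave its own RNA library, so there were 5 IGF1 and 5 control libraries. Culture without added IGF1 was the control, and uncultured teeth were not analysed here.

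Tight junctions seal the space between neighbouring epithelial cells near their apical side. Claudins are membrane proteins that line up into the sealing strands and set which ions and small molecules pass between cells, and occludin sits in the same strands. The zonula occludens proteins lie on the cytoplasmic face, where they bind the tails of claudins and occludin and tie them to actin. In a molar at this stage the enamel organ and the surface epithelium are the epithelial parts, and they surround or cover a larger mesenchyme.

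Whole teeth were sequenced. Depth was 2845773 to 8403151 counts for a control library and 3456634 to 8763113 for an IGF1 library, with embryo 1 lowest in both, so genes with few counts were least precise in that embryo. Both tissues were present in each library. The 22 epithelial markers (among them Dsp, Krt5, Krt17, Krt14 and Krt15) summed to 3478 to 5081 CPM (counts scaled to a common library size) in control teeth and 3879 to 5283 CPM in IGF1 teeth. The 15 mesenchymal markers summed to 7971 to 10180 CPM and 7207 to 9988 CPM. Of all genes tested, 1666 changed with IGF1 at an adjusted p-value under 0.05, 975 higher and 691 lower, by edgeR's quasi-likelihood test with embryo as a block. In bulk samples such as these, fewer cells of a type and less RNA per cell cannot be told apart.

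Of the 8 junction genes, 1 was called, Cldn1, which was lower with IGF1, and none was called higher. Over all genes tested, 11.5% were called, 4.76% lower and 6.72% higher. The median log2 fold change was 0.12 over the 8 genes and -0.0038 over all genes tested, with 4 of the 8 genes above 0 and 4 below. At an unadjusted p-value under 0.05 there were 3 of the 8 genes (Cldn1, Cldn12 and Tjp3), against 26.5% of all genes tested.

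Promoter windows of all 5 claudins are shown so that Cldn1, the gene that was called, can be set beside the claudins that were not. Each window runs 5′ to 3′ on the gene's own strand, from 250 bases before the RefSeq transcript start to 50 bases after it (mouse build GRCm38.p6, sequence from RefSeq, where all 8 genes were matched by symbol). Capitals in Cldn4, Cldn6 and the second window of Cldn7 mark CACCTG or its reverse complement CAGGTG, the E-box read by Snail and Zeb repressors. Capitals in Cldn12 mark overlapping matches of the AP-2 letters GCCNNNGGC, and all other bases are in lower case. The windows are chr16:26371790-26372089 (Cldn1, minus strand), chr5:134946885-134947184 (Cldn4, minus strand) and chr17:23679115-23679414 (Cldn6, plus strand). Cldn7 has 2 windows on the plus strand, chr11:69964529-69964828 and chr11:69965171-69965470. The first of 3 overlapping windows is given for Cldn12, chr5:5514927-5515226 on the minus strand.
Cldn1: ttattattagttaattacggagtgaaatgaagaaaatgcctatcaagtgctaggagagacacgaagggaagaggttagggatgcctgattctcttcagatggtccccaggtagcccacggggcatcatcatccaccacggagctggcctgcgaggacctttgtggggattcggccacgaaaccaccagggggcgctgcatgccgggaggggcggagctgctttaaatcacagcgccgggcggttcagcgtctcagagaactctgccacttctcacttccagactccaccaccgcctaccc
Cldn4: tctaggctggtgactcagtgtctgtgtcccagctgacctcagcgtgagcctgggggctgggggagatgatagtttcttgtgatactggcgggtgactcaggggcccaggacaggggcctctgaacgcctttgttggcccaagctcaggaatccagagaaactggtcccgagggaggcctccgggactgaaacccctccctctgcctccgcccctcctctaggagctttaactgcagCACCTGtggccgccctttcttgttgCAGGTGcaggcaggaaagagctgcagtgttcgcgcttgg
Cldn6: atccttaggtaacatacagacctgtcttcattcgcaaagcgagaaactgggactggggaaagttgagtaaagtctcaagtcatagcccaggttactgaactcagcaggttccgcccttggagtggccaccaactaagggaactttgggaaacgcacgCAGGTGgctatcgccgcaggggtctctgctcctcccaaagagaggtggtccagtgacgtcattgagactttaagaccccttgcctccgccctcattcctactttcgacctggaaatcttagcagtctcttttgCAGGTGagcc
Cldn7, first window: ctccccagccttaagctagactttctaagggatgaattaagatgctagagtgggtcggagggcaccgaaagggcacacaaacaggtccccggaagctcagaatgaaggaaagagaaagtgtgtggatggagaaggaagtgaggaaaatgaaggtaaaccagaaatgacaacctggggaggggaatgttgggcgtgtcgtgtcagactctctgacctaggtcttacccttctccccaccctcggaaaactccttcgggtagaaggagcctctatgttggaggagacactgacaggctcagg
Cldn7, second window: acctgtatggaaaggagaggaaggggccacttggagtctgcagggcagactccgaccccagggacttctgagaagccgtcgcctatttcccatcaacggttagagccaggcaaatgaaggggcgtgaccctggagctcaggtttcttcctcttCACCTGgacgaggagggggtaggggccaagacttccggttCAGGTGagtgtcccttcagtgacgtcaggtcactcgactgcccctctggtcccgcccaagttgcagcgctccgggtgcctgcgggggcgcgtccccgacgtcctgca
Cldn12: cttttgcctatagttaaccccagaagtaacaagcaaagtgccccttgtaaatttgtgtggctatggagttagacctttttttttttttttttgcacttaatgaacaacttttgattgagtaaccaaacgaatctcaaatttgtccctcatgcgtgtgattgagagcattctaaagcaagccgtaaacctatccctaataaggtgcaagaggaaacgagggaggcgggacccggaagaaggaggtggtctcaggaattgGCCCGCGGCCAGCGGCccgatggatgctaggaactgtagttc

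**Figure D1:**
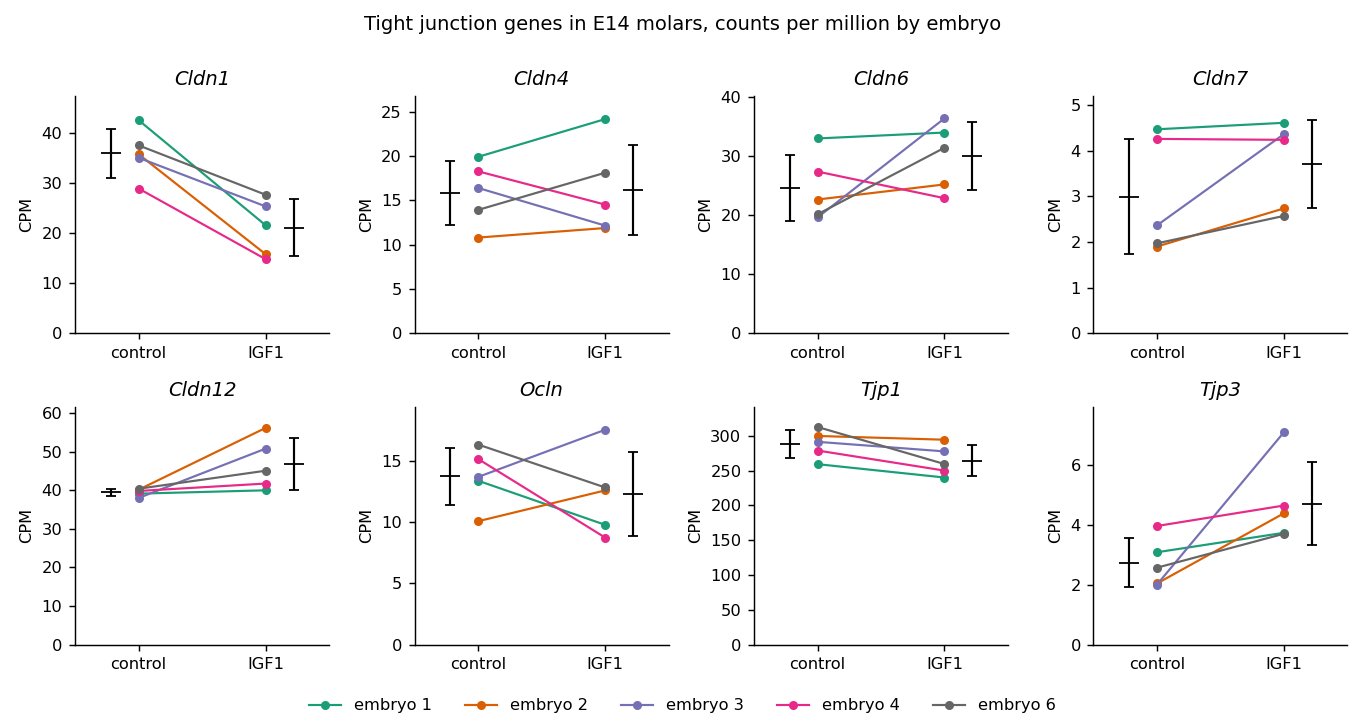
Expression of the 8 junction genes in every library, in CPM on a linear axis that starts at 0 in each panel. Each coloured line joins the control and the IGF1 tooth of an embryo, and the black bars beside them are the group mean with its SD (n = 5). Cldn1 is the panel whose groups do not overlap, with 28.9 to 42.6 CPM in control and 14.8 to 27.7 CPM in IGF1.

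Cldn1 (ENSMUSG00000022512, chr16:26356642-26371841, minus strand, GRCm38) encodes the claudin that is essential for the barrier of stratified epithelia such as the epidermis. In the control teeth of embryos 1, 2, 3, 4 and 6 it stood at 42.6, 35.8, 35.1, 28.9 and 37.6 CPM. In the IGF1 teeth of the same embryos it stood at 21.6, 15.8, 25.4, 14.8 and 27.7 CPM. Every IGF1 tooth lay below every control tooth, which made Cldn1 the 1 junction gene of 8 whose groups did not overlap. Over all genes tested, 7.25% had groups that did not overlap, 3.03% with IGF1 lower and 4.21% with IGF1 higher. The means were 36.0 ± 4.92 CPM in control and 21.1 ± 5.69 CPM in IGF1 (SD, n = 5 each). Cldn1 fell by 0.79 on the log2 scale (SE 0.13, 95% interval -1.07 to -0.51), to 0.58 of the control level (adjusted p = 0.00286 by edgeR's quasi-likelihood test, adjusted over all genes by Benjamini-Hochberg). It was lower with IGF1 in 5 of 5 embryos, and 11.2% of all genes tested were lower in all 5. The log2 difference was -0.97, -1.16 and -0.95 in embryos 1, 2 and 4, and it was smaller, -0.46 and -0.44, in embryos 3 and 6. Raw counts of 75 to 297 stood behind these values.

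Cldn4 (ENSMUSG00000047501, chr5:134945119-134946934, minus strand) encodes a claudin found in many simple epithelia. Its control values were 19.9, 10.8, 16.4, 18.3 and 13.9 CPM in embryos 1, 2, 3, 4 and 6, and its IGF1 values were 24.2, 11.9, 12.2, 14.5 and 18.1 CPM. The groups overlapped over most of their range, and the tooth of embryo 1 was the highest in both. The means were 15.9 ± 3.60 and 16.2 ± 5.13 CPM (SD, n = 5 each), and the log2 fold change was -0.0073 with a 95% interval of -0.34 to 0.32 (adjusted p = 0.983, edgeR). Cldn4 was higher with IGF1 in 3 embryos and lower in the other two, and its log2 fold change was 0.10 without embryo 3 and 0.08 without embryo 4. Its interval did not reach the estimate for Cldn1.

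Cldn6 (ENSMUSG00000023906, chr17:23679249-23682446, plus strand) encodes a claudin typical of embryonic epithelia. It gave 33.0, 22.6, 19.6, 27.4 and 20.1 CPM in the control teeth of embryos 1, 2, 3, 4 and 6 and 34.0, 25.2, 36.4, 22.9 and 31.4 CPM in the IGF1 teeth. The IGF1 tooth was the higher of the pair in 4 embryos and the lower in embryo 4, and the groups overlapped. Its log2 fold change of 0.31 (SE 0.16, interval -0.04 to 0.65) did not pass the test (adjusted p = 0.241, edgeR), and it was 0.14 without embryo 3 and 0.45 without embryo 4. The differences of 0.88 in embryo 3 and 0.63 in embryo 6 were larger than those of the other embryos, which ran from -0.26 to 0.15.

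Cldn7 (ENSMUSG00000018569, chr11:69964779-69967885, plus strand) encodes a claudin that also lies along the sides of epithelial cells, outside the sealing strands. It was a low gene here, with 13 to 38 counts in a library. The control values were 4.47, 1.90, 2.36, 4.26 and 1.97 CPM in embryos 1, 2, 3, 4 and 6, and the IGF1 values were 4.61, 2.73, 4.36, 4.24 and 2.57 CPM. The control teeth fell into a high pair (embryos 1 and 4) and a low group of 3 (embryos 2, 3 and 6). The IGF1 values, 2.57 to 4.61 CPM, overlapped the high pair and all lay above the low group. The IGF1 tooth was the higher of the pair in 4 embryos and the lower in embryo 4. Its log2 fold change was 0.37 (SE 0.26, interval -0.19 to 0.93; adjusted p = 0.399, edgeR), and it was 0.22 without embryo 3.

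Cldn12 (ENSMUSG00000046798, chr5:5489537-5514958, minus strand) encodes a claudin that lacks the tail motif by which most claudins bind the zonula occludens proteins. Control teeth were close together at 39.2, 40.2, 38.0, 39.9 and 40.4 CPM in embryos 1, 2, 3, 4 and 6. The IGF1 teeth gave 40.0, 56.2, 50.8, 41.8 and 45.1 CPM, so the spread was wider with IGF1 (SD 6.69 against 0.964 CPM). IGF1 was the higher of the pair in 5 of 5 embryos, as for 13% of all genes tested, and the groups overlapped only between 40.0 and 40.4 CPM. The log2 fold change of 0.24 (SE 0.09, interval 0.04 to 0.45) had an unadjusted p of 0.0233 and did not pass after adjustment over all genes (adjusted p = 0.118, edgeR).

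Occludin (Ocln, ENSMUSG00000021638, chr13:100496507-100552718, minus strand) shares the strands with the claudins. It stood at 13.4, 10.1, 13.7, 15.2 and 16.4 CPM in the control teeth of embryos 1, 2, 3, 4 and 6 and at 9.79, 12.6, 17.6, 8.75 and 12.9 CPM in the IGF1 teeth. The lowest and the highest of the 10 values were both IGF1 teeth, of embryos 4 and 3. Differences of 0.31 and 0.35 in embryos 2 and 3 stood against -0.44, -0.77 and -0.34 in embryos 1, 4 and 6. The log2 fold change was -0.15 with an interval of -0.56 to 0.25 (adjusted p = 0.653, edgeR), and it was 0.0098 without embryo 4.

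Tjp1 (ENSMUSG00000030516, chr7:65296165-65527781, minus strand), the scaffold ZO-1, had the highest level per kb of exon of the 8 genes. Control teeth gave 259, 299.9, 292, 279 and 313 CPM in embryos 1, 2, 3, 4 and 6, and IGF1 teeth gave 240.2, 295, 278, 250.1 and 259.5 CPM. The IGF1 tooth was the lower of the pair in 5 of 5 embryos, with log2 differences of -0.27 to -0.03, and the groups overlapped. Its log2 fold change of -0.13 (SE 0.06, interval -0.27 to 0.01) did not pass the test (adjusted p = 0.235, edgeR). The interval for Tjp1 was the narrowest of the 8 and lay wholly above that of Cldn1.

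Tjp3 (ENSMUSG00000034917, chr10:81273207-81291581, minus strand), the scaffold ZO-3, is the most restricted of the zonula occludens proteins to epithelia. It was low, with 9 to 62 counts in a library. The control teeth of embryos 1, 2, 3, 4 and 6 held 3.09, 2.05, 2.01, 3.97 and 2.58 CPM, and the IGF1 teeth held 3.74, 4.40, 7.12, 4.66 and 3.71 CPM. IGF1 was the higher in 5 of 5 embryos, the control tooth of embryo 4 lay among the IGF1 values, and the IGF1 tooth of embryo 3 stood apart from the rest. Its log2 fold change of 0.83 (SE 0.29, interval 0.19 to 1.47) had an unadjusted p of 0.0159 and an adjusted p of 0.0933 (edgeR). Without embryo 3 the log2 fold change was 0.54 (adjusted p = 0.287). Its 3′ end overlaps that of Apba3 on the other strand, only from 81273207 to 81273246, while Tjp3 has 3714 bases of exon. Apba3 had a mean of 219 counts. Whether the counting used strand is not stated in the sources used here.

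**Figure D2:**
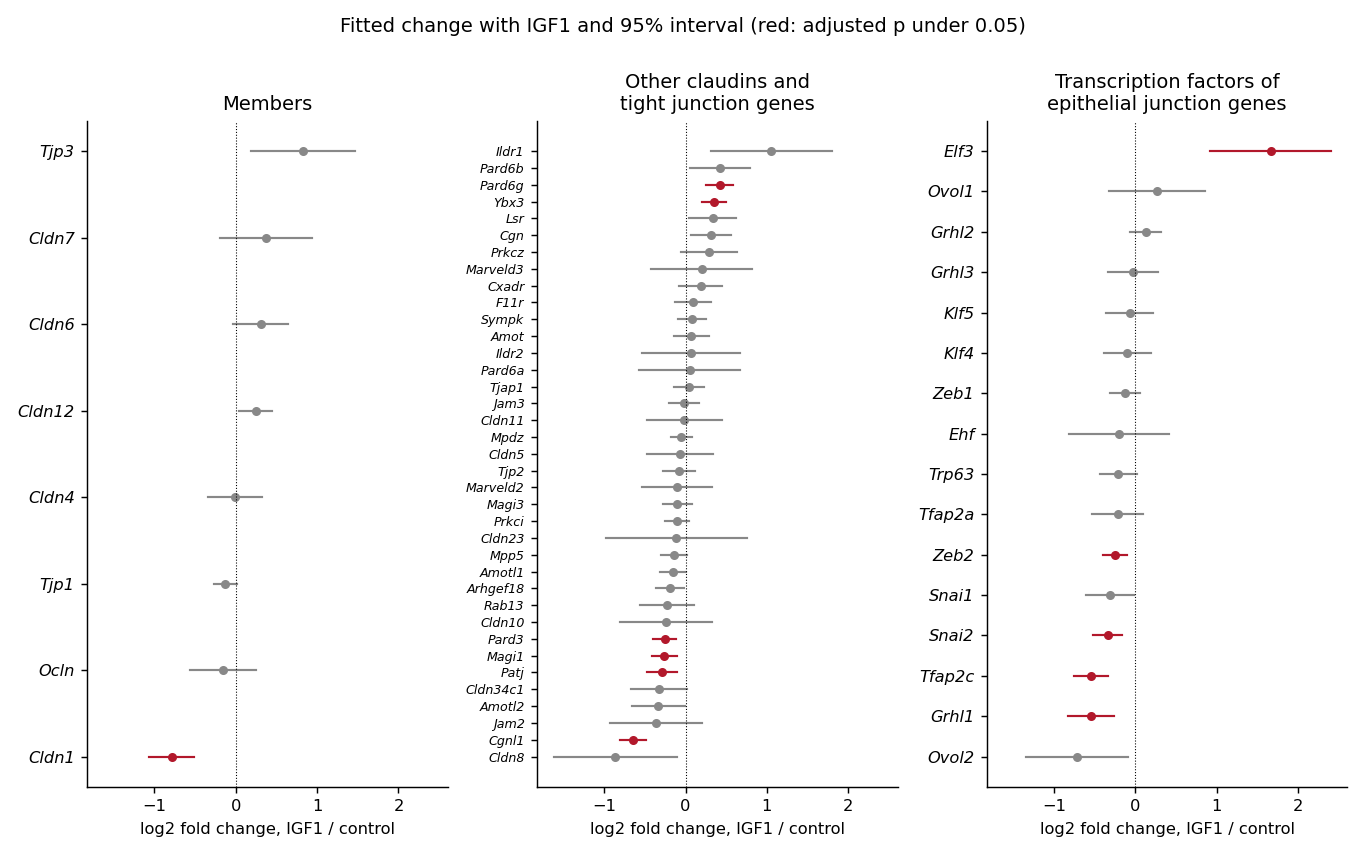
Log2 fold change, IGF1 against control, of the 8 junction genes (left), of the other claudins and tight junction genes tested (middle) and of the junction transcription factors reported here (right). Points are edgeR estimates with 95% intervals, red where the adjusted p was under 0.05 and grey elsewhere, and the dotted line marks 0. Cldn1 at -0.79 is the only red point of the left panel.

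The embryos were not alike. Of the 7 genes other than Cldn1, 5 (Cldn7, Cldn12, Ocln, Tjp1 and Tjp3) had their highest differences in embryos 2 and 3. That order was shown by 11.5% of all genes tested. Cldn1 had its lowest difference in embryo 2 (-1.16), while its -0.46 in embryo 3 was near its highest, -0.44 in embryo 6. For Tjp1 the differences in embryos 2 and 3 were the smallest of 5 negative differences, -0.03 and -0.07. For Tjp3 the differences were 1.00 and 1.68 in embryos 2 and 3, against 0.25, 0.22 and 0.48 in embryos 1, 4 and 6. The same embryos had the highest median difference over 11 genes of the response to low oxygen, 2.92 and 2.47, against 0.54, 0.99 and 1.14 in embryos 1, 4 and 6. The order of the embryos was read from these same differences, and the low-oxygen list was added after the data had been seen. Their match is therefore no test. The part of the low-oxygen genes in these differences was not tested. The low-oxygen median was above 0 in all 5 embryos.

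**Figure D3:**
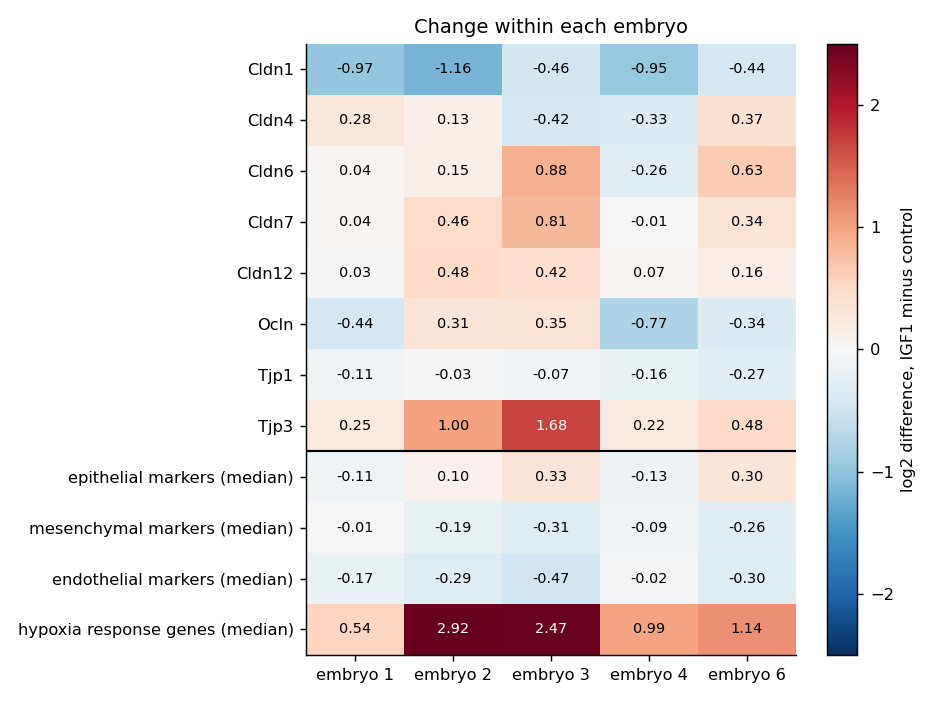
Log2 difference, IGF1 tooth minus control tooth, of each junction gene in each of the 5 embryos, above the medians of the epithelial, mesenchymal and endothelial markers and of the low-oxygen (hypoxia response) genes. Blue cells are lower and red cells higher with IGF1, the value is printed in each cell, and the darkest red is the end of the colour scale. Cldn1 is below 0 in every embryo, from -1.16 to -0.44.

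Markers of the epithelium were read in the same pairs. Their median difference was -0.11, 0.10, 0.33, -0.13 and 0.30 in embryos 1, 2, 3, 4 and 6, above 0 in 3 embryos and below 0 in the other two. Of the 22 markers 1 was called higher (Krt5) and 1 lower, beside 11.5% of all genes called, and 0 were called with no embryo block or without embryo 6. Taken relative to that median, Cldn1 was -0.86, -1.27, -0.79, -0.83 and -0.73 in the same embryos, with an SD of 0.21 around a mean of -0.89. Scaled to the summed epithelial markers in place of all genes, the fit gave -0.91 for Cldn1 (adjusted p = 0.000129, edgeR), a scaling that moved the median of all genes to -0.11. The part of the epithelial share in the Cldn1 result was not tested. Relative to the same median, Tjp3 (0.19 to 1.36) and Cldn7 (0.04 to 0.48) were above 0 in 5 of 5 embryos. Tjp1 was below 0 in 5 of 5, from -0.56 to -0.00039, and the other four genes had both signs.

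Other cell types were read from their own markers, whose counts stand beside the 4.76% of all genes that were lower. Of 15 mesenchymal markers 3 were lower (Vim, Pdgfra and Pdgfrb), with a median log2 fold change of -0.11 and medians of -0.01, -0.19, -0.31, -0.09 and -0.26 in embryos 1, 2, 3, 4 and 6, and 1 was called with no embryo block. Endothelial cells also form tight junctions, and 2 of 10 endothelial markers were lower (Cdh5 and Esam), with a median of -0.26 and a summed level of 438 to 499 CPM in control against 353 to 462 CPM in IGF1. No endothelial marker was called with no embryo block, without embryo 2 or without embryo 4, and 1 was called by the DESeq2 Wald test. Cldn5, the endothelial claudin, had a log2 fold change of -0.06 (interval -0.47 to 0.34). Of 9 macrophage markers tested 1 was lower (Csf1r), and 0 were called with no embryo block, by the DESeq2 Wald test, or without embryo 3, 4 or 6. Only 2 of 7 Schwann and neural crest glia markers passed the filter, and neither was called by edgeR, DESeq2 or limma-voom nor had an unadjusted p under 0.05. The part of these cells in the junction results was not tested.

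Levels were compared between genes only per kilobase of exon. The order of the means was the same in both groups: Tjp1, Cldn6, Cldn12, Cldn4, Cldn1, Ocln, Cldn7 and Tjp3. In control teeth Tjp1 stood at 36.9 ± 2.62 CPM per kb, Cldn6 at 14.3 ± 3.27, Cldn12 at 9.35 ± 0.228, Cldn4 at 8.74 ± 1.99, Cldn1 at 7.44 ± 1.02, Ocln at 3.26 ± 0.561, Cldn7 at 1.54 ± 0.650 and Tjp3 at 0.737 ± 0.221 (SD, n = 5). In control teeth Cldn12 was not separated from Cldn4 by its spread, nor Cldn4 from Cldn1, with Cldn12 above Cldn4 in 2 of 5 libraries and Cldn4 above Cldn1 in 3 of 5. In IGF1 teeth Cldn1 stood at 4.35 ± 1.17 CPM per kb and Cldn4 at 8.91 ± 2.82, and Cldn4 was above Cldn1 in 5 of 5 libraries without overlap. Cldn12 was above Cldn4 in 4 of 5 IGF1 libraries, and Ocln was above Cldn7 in 5 of 5 control and 3 of 5 IGF1 libraries. Salmon divides reads among similar transcripts, and close paralogs in the claudin family could share some.

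Adding the 14 claudins of the table per kb gave a pool of 61.1 ± 5.78 CPM per kb in control and 61.0 ± 6.04 in IGF1 teeth (SD, n = 5 each). Cldn1 made up 12.2% ± 1.50 of this pool in control and 7.07% ± 1.50 in IGF1, lower in 5 of 5 embryos and with no overlap (9.70% to 13.8% against 5.43% to 8.88%). Cldn6 made up 23.1% ± 3.21 and 28.4% ± 3.71 and was higher in 4 embryos. Cldn12 made up 15.4% ± 1.47 and 18.4% ± 4.09, higher in 4, and Cldn4 14.2% ± 2.48 and 14.4% ± 3.35. The smallest share of the 5 was that of Cldn7, 2.46% ± 0.866 and 3.11% ± 0.756. The shares come from the same counts as the fold changes and sum to a fixed whole, so they are no further evidence of direction.

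**Figure D4:**
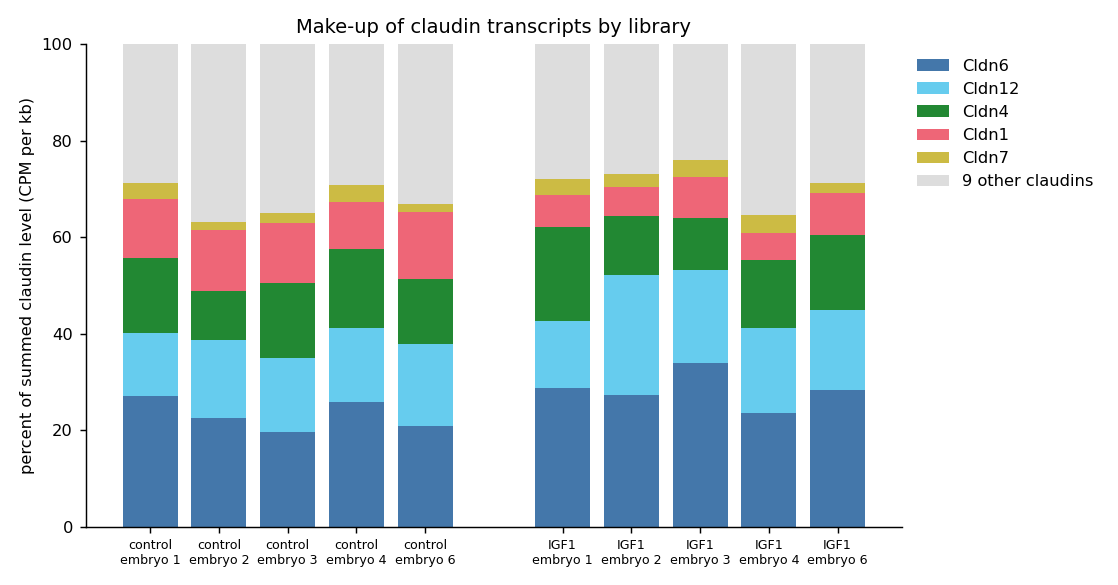
Make-up of the summed claudin level in every library, in percent of the CPM per kb of 14 claudins. Each bar is a library, control teeth on the left and IGF1 teeth on the right, with the member claudins stacked from 0 and the 9 other claudins in grey. The Cldn1 segment is 9.70% to 13.8% in control teeth and 5.43% to 8.88% in IGF1 teeth.

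Among the rest of the claudin family, 9 of 27 listed genes were in the table and 6 were tested. None was called by edgeR's quasi-likelihood test, DESeq2 or limma-voom, beside 11.5% of all genes called by edgeR. At an unadjusted p under 0.05 there was 1 of the 6, beside 26.5% of all genes: Cldn8, with a log2 fold change of -0.86 (adjusted p = 0.136). Their median was -0.18, and all 6 estimates were below 0. Cldn34c1 belongs to a cluster of similar copies, and its counts are uncertain. Cldn3, which is closely related to Cldn4 and Cldn6, had only 2 to 9 counts in a library and was not tested.

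Of 31 other tight junction genes tested, 2 were higher and 4 lower, beside the 6.72% and 4.76% of all genes, and their median was -0.01. Cgnl1, the paracingulin that links junctions to actin and microtubules, had control values of 149, 119, 138, 147 and 129 CPM in embryos 1, 2, 3, 4 and 6. Its IGF1 values were 89.3, 84.6, 77.7, 97.4 and 86.9 CPM, below every control tooth. Cgnl1 fell by 0.65 on the log2 scale (SE 0.07, adjusted p = 0.000387, edgeR's quasi-likelihood test), the largest change of this list among the genes that passed. The polarity and scaffold genes Pard3 (-0.26, adjusted p = 0.0257), Magi1 (-0.26, adjusted p = 0.0344) and Patj (-0.29, adjusted p = 0.0458) also passed, with IGF1 lower. The call of Patj was lost in 8 of 12 alternatives. Among them were no embryo block (adjusted p = 0.200, edgeR) and the DESeq2 Wald test (adjusted p = 0.0575). Magi1 lost its call with no block (adjusted p = 0.0836, edgeR) and with scaling to epithelial markers (0.0853). It also missed without embryo 1 (0.118), 4 (0.111) or 6 (0.101). Pard3 lost its call with that scaling (adjusted p = 0.0772, edgeR) and without embryo 1 (0.0966), 4 (0.109) or 6 (0.0739). Pard6g, a partner of Pard3, rose by 0.42, and Ybx3, a transcription regulator that binds ZO-1, rose by 0.35. Amotl1, which binds other junction plaque proteins, had a log2 fold change of -0.15 (interval -0.32 to 0.01). The count of 6 called genes was 4 with no embryo block (2 higher and 2 lower). It was 3 without embryo 1 and 3 without embryo 4 (2 higher and 1 lower in each). It was 1 when libraries were scaled to the epithelial markers, a scaling with larger standard errors (0.12 against 0.06 for Pard3) that shifts all fold changes together. Over all genes, 887, 1124, 986 and 926 were called in these fits, in the same order, against 1666 in the reported fit.

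Transcription factors that act on epithelial junction genes were counted next. Of 17 tested, 1 was higher and 5 were lower, where 6.72% of all genes were higher and 4.76% lower, and their median was -0.21. Elf3, an epithelial ETS factor, rose by 1.66 (SE 0.34, adjusted p = 0.0100, edgeR), from 4.94 ± 1.55 to 16.1 ± 9.74 CPM, and its IGF1 values were highest in embryos 2 and 3 (30.7 and 21.7 CPM against 8.99 to 9.79 CPM). Among those that fell were the epithelial factors Grhl1 (-0.54, adjusted p = 0.0220) and Tfap2c (-0.54, adjusted p = 0.00472) by edgeR. The repressors of epithelial genes Snai2 (-0.34, adjusted p = 0.0193) and Zeb2 (-0.25, adjusted p = 0.0367) also fell. With no embryo block, Tfap2c (adjusted p = 0.111), Snai2 (0.115) and Zeb2 (0.164) lost their calls. Grhl1, Snai2 and Zeb2 lost theirs without embryo 1, 4 or 6, Grhl1 also by the DESeq2 Wald test (adjusted p = 0.0632). Zeb2 also missed without embryo 2 and with scaling to epithelial markers. Zeb2 and Snai2 are also expressed in mesenchyme, so their values cannot be placed in either tissue. Without the embryo block, 2 of the 17 factors were called in place of 6, and 2 were called without embryo 1 or without embryo 4. In each of these fits 1 factor was higher and 1 lower. Over all genes, 887, 1124 and 986 were called in the same fits, against 1666 in the reported fit.

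Genes whose pattern over the 10 libraries was most like each junction gene were found by Pearson's r of log2 CPM, as a description. The libraries share embryos and treatment. Cldn1 was closest to Tsc22d1 (0.96), Sh3rf2 (0.95) and Inhba (0.95). Cldn4 was closest to Srf (0.98), Dffa and Akap1 (0.96 each), and Cldn6 to Pkp1 (0.95), Celf1 (0.92) and Srcin1 (0.91). For Cldn7 they were Pbld2 (0.95), Furin (0.94) and Zfp687 (0.92), and for Cldn12 Psph (0.98), Mboat2 (0.96) and Seh1l (0.95). Ocln had Chst15 and Zfp995 among its closest (0.88 each), Tjp1 had Ktn1, Jmjd1c and Upf2 (0.97 each), and Tjp3 had Cfap45 (0.96), Pstpip2 (0.92) and Susd4 (0.91). No junction gene was among the 3 nearest of another. Over the pooled libraries the epithelial marker median correlated with Ocln at 0.82, with Cldn1 at 0.40 and with the others at -0.14 to 0.26. The mesenchymal median correlated with Cldn1 at 0.82 and with the others at -0.61 (Cldn12) to 0.48 (Ocln). Pooled values mix treatment and embryo. In the paired differences Cldn1 fell least in embryos 3 and 6 (-0.46 and -0.44), where the mesenchymal median fell most (-0.31 and -0.26).

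Chromosomal neighbourhoods were read as the genes whose lower chromosome coordinate lay within 500 kb of that of a junction gene. For a gene on the minus strand that coordinate is the 3′ end. Of 154 neighbours tested, 13 were called, 9 higher and 4 lower, or 8.44% beside 11.5% of all genes. Cldn1 had 2 tested neighbours, P3h2 with a log2 fold change of -0.33 (adjusted p = 0.105, edgeR) and Il1rap with 0.11 (adjusted p = 0.593). The 13 lay near Cldn4 (Tbl2, Mettl27 and Clip2), Cldn7 (Polr2a, Alox12e, Fgf11, Eif4a1 and Eif5a), Ocln (Slc30a5 and Ak6) and Tjp3 (Ncln, Oaz1 and Lmnb2). The largest of their changes were -1.46 for Alox12e and 1.17 for Fgf11. No tested claudin was a neighbour.

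Promoter letters were set against 32851 windows of the same 300 bases. The E-box capitalised in the windows printed above was found in 20.2% of all windows and in at least 1 window of 22.6% of genes, on either strand. Among the 8 junction genes, 5 had it: Cldn4, Cldn6, Cldn7, Ocln and Tjp3. In Cldn4 it lay at -14 to -9 and 12 to 17 from the start, in Cldn6 at -93 to -88 and 41 to 46, and in the second Cldn7 window at -97 to -92 and -57 to -52. The first Cldn7 window and the 3 windows of Cldn12, genes that were not called, held no E-box, and neither did that of Cldn1. The AP-2 letters GCCNNNGGC, found in 16.6% of windows and in at least 1 window of 18.55% of genes, were in Cldn12, Ocln and Tjp1. The low-oxygen core ACGTG or CACGT, in 19.6% of windows and at least 1 window of 21.78% of genes, was in Tjp1 and Tjp3. The only Tjp1 window, chr7:65371195-65371494, lies inside the gene as placed above (chr7:65296165-65527781, minus strand), not at its outer 5′ end. The Cldn1 window held no E-box, AP-2 or low-oxygen letters. It also lacked the grainyhead-like AACCNGTT or AACNGGTT (2.09% of windows), the FoxO letters GTAAACA or TGTTTAC (3.65%) and TATAAA (8.32%). It had 56% GC and 15 CpG, where the median window had 52.7% GC and 7 CpG. These are matches of letters in a short window and describe no binding.

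Cldn1, Cldn12 and Tjp3, the genes with an unadjusted p under 0.05, were followed through each change of processing. Cldn1 kept its direction and its call, and Cldn12 and Tjp3 stayed above 0 without passing in any.

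**Figure D5:**
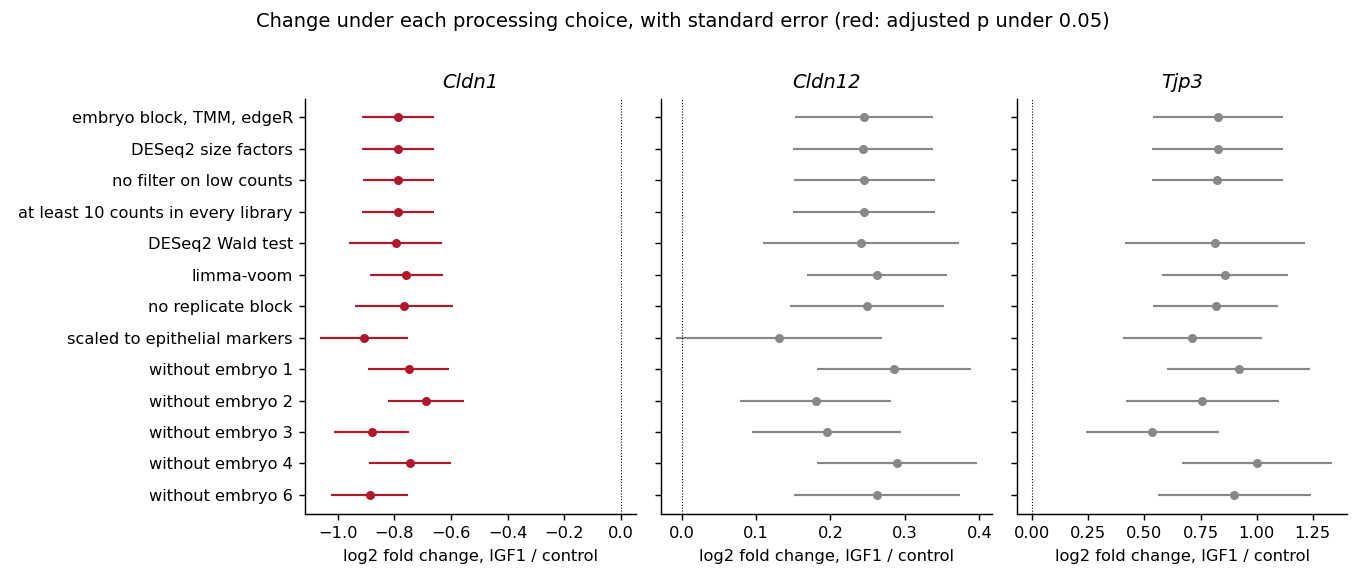
Log2 fold change of Cldn1, Cldn12 and Tjp3 under the reported fit (top line) and the 12 alternative settings, with standard errors as bars and a scale of its own in each panel. Red points had an adjusted p under 0.05, and the dotted line marks 0. Cldn1 passed in every setting run, between -0.91 and -0.69, Cldn12 and Tjp3 in none, and Tjp3 was not tested where each library needed at least 10 counts.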

How the data were processed

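RNA was measured in 10 cultured molars, 5 IGF1 and 5 control. The deposited table holds estimated counts per gene, which the authors obtained with Salmon; they were whole numbers with unequal library totals and were read as not normalized. Their processing notes name FastQC 0.11.8, Trimmomatic 0.39, Salmon 0.99.0, DESeq2 and build GRCm38, while the transcript set, the summing to genes and the use of strand are not given in the sources used here. All deposited values were whole, so rounding changed none. The table held 18381 genes with summed counts of at least 10, and 18287 identifiers were named from GENCODE M21 (GRCm38), which also gave positions and exon lengths.

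Counts were scaled by TMM, filtered with filterByExpr and tested with edgeR's quasi-likelihood test (edgeR 4.0.16, R 4.3.3), with embryo as a block and Benjamini-Hochberg adjustment over 14504 genes, called at an adjusted p under 0.05. The labels pair the teeth by embryo. Deviations from group means correlated within embryos 1, 2, 3, 4 and 6 at 0.319, 0.208, -0.0389, 0.170 and 0.313, against a median of -0.0463 between embryos. Libraries of the same group were further apart than counting error allows (chi-square per degree of freedom 4.68 to 19.4), so each was kept as a sample. Differences per embryo used log2 CPM with a prior count of 2, and intervals are 95%. The standard error was taken from the fold change and the F statistic. The test was tried on simulated data first.

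Alternatives were DESeq2 size factors, DESeq2 1.42.0 (Wald test), limma-voom (3.58.1), 2 other filters, no block, scaling to epithelial markers, each embryo left out, and shares without division by length. The low-oxygen list was added after the data had been seen. Tables and promoter matches were made with Python 3.11.15 and pandas 2.3.3.

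All 8 members were named. Of the other claudins, tight junction genes and transcription factors, genes past the threshold were named, up to 10 by size of change, with the 5 highest in CPM allowed. The 3 genes most like each member and all called neighbours were also named. Apba3, Cldn3, P3h2, Il1rap and the called markers of other cell types were named outside this rule after their values were seen. Some genes that the rule or a count covers are not reported here. Members and lists were chosen with earlier results of these data known.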

Additional observations from a re-analysis of the deposited data

Results flagged for a closer look

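Tjp3 in the IGF1 tooth of embryo 3 stood apart from the rest of its group, at 7.12 CPM where the other 4 IGF1 teeth held 3.71 to 4.66 CPM. Its gap to the nearest tooth was 0.722 of the group's range, over Dixon's limit of 0.71 for 5 samples. Of 50 groups tested this was 1, and chance alone marks about 1 in 20, or 2.5 of 50. The log2 fold change of Tjp3 without embryo 3 was 0.54, against 0.83 with it.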

How the results depend on the processing

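Cldn1 passed the test in all 12 alternatives, with log2 fold changes from -0.91 to -0.69 and adjusted p from 5.51e-05 to 0.0182. The fit with no replicate block (the teeth of an embryo not paired) gave -0.77 and the adjusted p of 0.0182, and it called 887 genes in all, against 1666. No other member passed in any alternative: Tjp3 ran from 0.54 to 1.00 (adjusted p 0.0732 to 0.287) and was not tested where every library needed 10 counts, and Cldn12 ran from 0.13 to 0.29 (adjusted p 0.0957 to 0.636). Cldn4 changed sign to 0.013 with no replicate block and ran from -0.11 to 0.10 with single embryos left out. Ocln ran from -0.31 to 0.0098 with single embryos left out. The cause of these changes was not tested.

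Counts of called genes in the other lists moved more. With no replicate block there were 2 transcription factors, 0 epithelial, 1 mesenchymal, 0 endothelial and 0 macrophage markers. Scaling to epithelial markers called 926 genes, 36.2% of them higher against 58.5%. It gave 1 other tight junction gene, 1 epithelial and 1 endothelial marker. Standard errors were larger (0.13 against 0.07 for Pard6g). The tight junction genes that lost their calls had log2 fold changes about as large relative to the median of all genes, which moved to -0.11. These were 0.42 for Pard6g, 0.36 for Ybx3, -0.25 for Pard3, -0.25 for Magi1 and -0.28 for Patj. Such relative values are left in place by construction under this scaling. The DESeq2 Wald test called 1 epithelial, 1 endothelial and 0 macrophage markers, and the filter of 10 counts in every library gave 4 epithelial markers. With single embryos left out, when 986 to 1602 genes were called in all (1124 without embryo 1, 986 without embryo 4 and 994 without embryo 6), the other tight junction genes ran from 3 to 6, transcription factors from 2 to 7, epithelial markers from 0 to 3, endothelial markers from 0 to 1 and macrophage markers from 0 to 1. The cause was not tested. Cgnl1 and Elf3 passed in all 12 alternatives, and for the 12 called junction genes and transcription factors together, these included, 38 of 144 values missed the threshold and kept their direction.

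Without division by length, the shares of the claudin sum in control and IGF1 teeth were 21.5% and 13.1% for Cldn1, 9.51% and 10.2% for Cldn4, 14.6% and 18.8% for Cldn6, and 23.8% and 29.7% for Cldn12, and that of Cldn7 in IGF1 teeth was 2.34%. Cldn7 and Tjp3 rest on few counts, so their intervals are the widest of the 8, and 5 embryos limit all of them.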
